A study of Homo sapiens with 4 samples.

Results

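FAM111A and FAM111B, a pair of related serine protease genes, were followed in RPE-1 cells between 4 h and 8 h of exposure to merbarone. RPE-1 is a human epithelial line of retinal pigment epithelium origin, immortalized with telomerase (hTERT) and labelled wild type, and merbarone inhibits the catalysis of type II DNA topoisomerases (TOP2). All cells had been held for 48 h in medium with 0.1% serum, which arrests them in G0/G1, and were then given 200 μM merbarone, so the labels separate the groups only by the time of exposure. There were 4 RNA-Seq libraries, 2 replicates at 4 h and 2 at 8 h. The genes were located by their symbols, and both were found, 2 of the 23459 genes listed in each library. The pair was chosen by the normalized counts of FAM111B, which fell most between these times among genes with enough reads, so the differences of both genes are described without a test.

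Both proteins carry a protease domain of the trypsin fold. FAM111A binds PCNA, the sliding clamp of the replication fork, through a PIP box, and it helps forks to pass proteins that are stuck on DNA, such as trapped topoisomerase I (TOP1) or PARP1. It also restricts some DNA viruses, and its mutations cause Kenny-Caffey syndrome. FAM111B is the less studied relative. Its mutations cause a hereditary fibrosing poikiloderma, and it is known as a gene whose expression follows the cell cycle, with high levels from the G1/S transition on.

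The number of reads counted on genes ranged from 8064450 to 10324697 per library. No untreated cells were analysed here, so time in merbarone cannot be told apart from further time in low-serum medium. In these bulk libraries, fewer cells with a transcript cannot be told apart from less transcript per cell. Genes were retained for testing where CPM, the count scaled to the library total, exceeded 1 in 2 or more libraries. As a check of the labelled origin, 4 of 12 retinal pigment epithelium markers were retained, among them MITF (669 to 882 counts) and OTX2 (132 to 193 counts). The visual cycle gene RPE65 had 2 to 7 counts, and TYR and DCT, of pigment synthesis, had none. Of 6 genes of keratins and cell junctions, 3 were retained. The keratin genes KRT8 and KRT18 had at least 1927 counts in every library and CDH2, of N-cadherin, 3048 to 3950, while the keratin gene KRT19 and EPCAM had 0 and CDH1, of E-cadherin, at most 1. Of 6 markers of blood, endothelium and liver, CD68, a lysosomal protein gene, had 575 to 654 counts and the other 5 had at most 8.

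The pair lies head to tail on the plus strand of chromosome 11. On GRCh37, the assembly that hg19 represents, FAM111B spans 58874658 to 58894885 and FAM111A spans 58910221 to 58922512, with a gap of 15335 bases. In the GENCODE annotation, the canonical FAM111B transcript has 4 exons and that of FAM111A has 6. The last exon dominates in both, with 3234 of 3506 bases in FAM111B and 3290 of 3989 bases in FAM111A. That exon holds 2121 of the 2202 coding bases of FAM111B and 1752 of the 1833 coding bases of FAM111A.

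This layout bears on the counts, because the authors aligned reads of 75 bases without gaps and discarded any read that matched more than 1 place. Of all stretches of 75 bases in the canonical transcripts, 94.78% lay within 1 exon for FAM111B and 91.67% for FAM111A, which leaves few reads to be lost at splice junctions. All 3598 such stretches in annotated FAM111B exons and all 6925 in FAM111A exons occurred at 1 place in the genome as exact matches. The longest run of bases shared by both canonical transcripts was 13, so an exact read of either gene cannot come from the other. FAM111A-DT, a long non-coding RNA gene on the opposite strand, overlaps the first 268 bases of FAM111A and was not analysed here. The counting is not stated to use strand, so reads from those bases cannot be told apart.

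The start regions of FAM111A are shown because genes of DNA replication are often controlled by short promoter motifs. RefSeq promoter sequences (GRCh38.p14, 250 bases before to 50 after a start) were at hand for 1 of the 2 genes, FAM111A, with 2 starts on the plus strand, at chr11:59142606-59142905 and chr11:59144612-59144911. FAM111B was not matched. Capitals mark letters that match a searched motif on either strand. The motifs were E2F sites (TTTCCCGC, TTTCGCGC, TTTGGCGC or TTTGCCGC), the cell cycle element CHR (TTTGAA), the CCAAT box (CCAAT) and the core letters of sites for interferon regulatory factors, IRF (AANNGAAA), chosen with the sequences in view.
FAM111A, upstream start: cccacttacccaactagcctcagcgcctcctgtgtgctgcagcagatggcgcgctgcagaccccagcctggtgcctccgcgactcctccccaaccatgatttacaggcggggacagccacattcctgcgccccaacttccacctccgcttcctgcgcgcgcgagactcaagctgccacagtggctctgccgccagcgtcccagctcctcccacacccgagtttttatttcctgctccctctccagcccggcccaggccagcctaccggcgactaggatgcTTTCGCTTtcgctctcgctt
FAM111A, downstream start: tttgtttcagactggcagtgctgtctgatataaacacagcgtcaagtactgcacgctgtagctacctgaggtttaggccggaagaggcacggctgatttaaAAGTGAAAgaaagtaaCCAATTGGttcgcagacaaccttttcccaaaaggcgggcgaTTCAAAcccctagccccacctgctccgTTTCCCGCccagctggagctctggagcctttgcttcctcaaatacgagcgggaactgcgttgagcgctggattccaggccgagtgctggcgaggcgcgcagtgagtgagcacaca

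At the downstream start, an E2F match (TTTCCCGC) fills bases 186 to 193 of the 300 printed. A CHR match on the minus strand fills bases 159 to 164, and 2 overlapping CCAAT matches on opposite strands fill bases 118 to 125. An IRF match fills bases 102 to 109. At the upstream start the one match was to the IRF letters, on the minus strand at bases 281 to 288. Of all 35116 promoters in the table, 3.31% held an E2F match, 15.16% a CHR match, 34.61% a CCAAT match and 22.83% an IRF match. Since the motifs were chosen with the sequences in view, nothing is read from these shares. These matches are letters in a sequence, and no binding was measured. A link between them and the lower counts at 8 h was not tested.

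FAM111A gave 782 and 682 reads in replicates 1 and 2 of the 4 h group, and 310 and 215 in those of the 8 h group. Scaled by TMM, which corrects for library size and composition, these are normalized counts of 699.2 and 616.0 at 4 h, and 315.9 and 266.2 at 8 h. Both 8 h libraries lay below both 4 h libraries. The mean was 657.6 ± 58.8 at 4 h and 291.0 ± 35.2 at 8 h (SD, n = 2 each), so 44.3% of the level at 4 h was measured at 8 h. The log2 fold change (log2FC) from edgeR, 8 h against 4 h, was −1.17 with a standard error (SE) of 0.11.

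FAM111B gave 135 and 117 reads at 4 h, against 16 and 10 at 8 h. Normalized, they amount to 120.7 and 105.7 (4 h) and to 16.3 and 12.4 (8 h). Here too the times did not overlap. The mean was 113.2 ± 10.6 at 4 h and 14.3 ± 2.77 at 8 h (SD, n = 2 each), a 7.89-fold lower value at 8 h, and the log2FC was −2.95 with an SE of 0.27. The 8 h values rest on few reads. The exact Poisson 95% interval of the count was 9.15 to 26.0 in replicate 1 and 4.80 to 18.4 in replicate 2, and it covers counting error only. FAM111B nevertheless stayed above a CPM of 1 in every library, at 1.65 and 1.24 in the 8 h replicates.

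**Figure D1:**
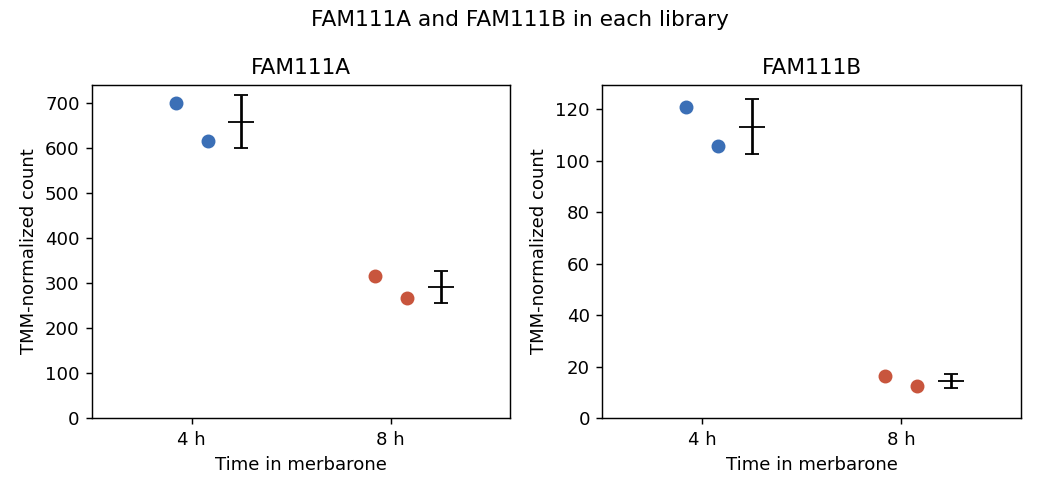
TMM-normalized counts of FAM111A (left) and FAM111B (right) by time in merbarone, with a point for each library and, beside the points, the mean with its SD (n = 2). FAM111A went from 657.6 to 291.0 and FAM111B from 113.2 to 14.3 on average, with no overlap between the times in either gene.

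Of the 12559 genes that passed the CPM filter, 34.9% had non-overlapping times with 8 h below 4 h, and 34.8% with 8 h above 4 h. DEGs, with an edgeR adjusted p below 0.05 and an absolute log2FC above 1, made up 5.33% of these genes, and 3.88% were DEGs lower at 8 h. The values of the pair lie past these limits, from which nothing is read, since the pair was chosen on this contrast. The choice also sets the place of FAM111B as the most negative log2FC of the 9650 genes whose mean normalized count reached 100 at either time, a set it entered by its 4 h level. Just outside the choice came E2F2, which encodes an activator of S-phase genes, at −2.81. Among all 12559 genes, 4 had a more negative log2FC than FAM111B. FAM111A came at rank 339, so that 2.69% of the genes had a more negative value.

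With the genes split into 5 groups of nearly equal size by mean log2-CPM, the median log2FC was −0.20, −0.11, −0.03, 0.06 and 0.12 from the lowest group to the highest. FAM111B was in group 1, the lowest, and FAM111A in group 4. The mean is over all 4 libraries, so the low 8 h values of FAM111B enter its group. By mean normalized count FAM111B was above 27.0% of the genes at 4 h and 5.02% at 8 h, and FAM111A above 74.6% and 50.8%. The median of all genes was −0.0024. With each library corrected for the trend with abundance, an alternative chosen after seeing the data, the log2FC was −2.77 for FAM111B and −1.18 for FAM111A.

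The share of FAM111B in the reads of the pair needs no scaling between libraries. That it was lower at 8 h follows from the choice of FAM111B, and its size is given as a description. Of the reads on the pair, FAM111B had 14.7% in replicate 1 at 4 h (exact 95% interval 12.5 to 17.2) and 14.6% in replicate 2 (12.3 to 17.3). At 8 h its share was 4.91% in replicate 1 (2.83 to 7.85) and 4.44% in replicate 2 (2.15 to 8.02). The replicates of each time were nearly equal, and the intervals cover counting error only. Expressed the other way, FAM111A had 5.79 and 5.83 counts for each FAM111B count at 4 h, and 19.4 and 21.5 at 8 h.

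**Figure D2:**
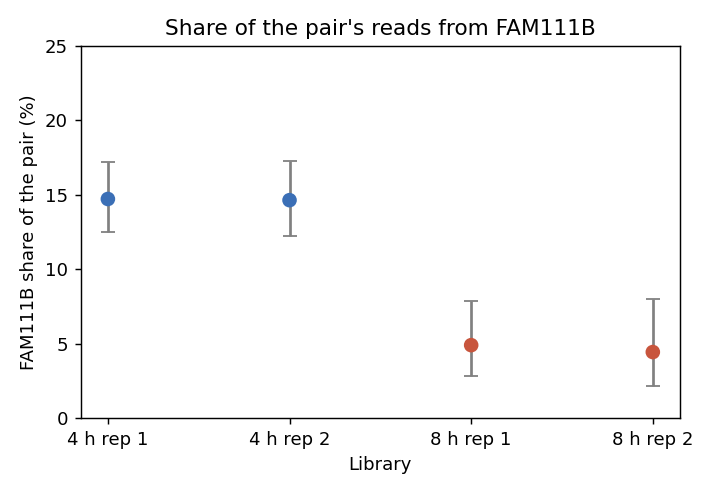
Share of the reads on FAM111A and FAM111B together that fell on FAM111B, in percent, for each of the 4 libraries, with exact binomial 95% intervals that cover counting error only. Both 4 h libraries, at 14.7% and 14.6%, lie above both 8 h libraries, at 4.91% and 4.44%.

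Levels of different genes were compared per length, as RPKM over all annotated exons of a gene, with TMM-scaled library sizes. FAM111A had 9.53 ± 0.85 RPKM at 4 h and 4.22 ± 0.51 at 8 h, and FAM111B had 3.07 ± 0.29 and 0.39 ± 0.08 (SD, n = 2 each). On this scale FAM111A was above 65.7% of 12289 genes at 4 h and above 43.7% at 8 h. FAM111B was above 34.3% and 6.68%. FAM111A was thus the more abundant member at both times, by 3.11 times at 4 h and 10.9 times at 8 h per exon length, and by 6.98 and 24.6 times per coding length. The ratios differ with the length used. The exons of all annotated transcripts together cover 7221 bases for FAM111A and 3865 for FAM111B, while the coding parts have 1833 and 2202. The canonical transcripts are closer in length, at 3989 and 3506 bases, and no ratio was taken over them.

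Genes of proteins tied to FAM111A were divided, with 3 of 7 lower and 1 higher at an adjusted p below 0.05 and 0 DEGs in edgeR, limma-voom and DESeq2, where 18.8% of all genes were lower, 19.9% higher and 5.33% DEGs. PCNA, the clamp it binds, had normalized counts of 2041 and 2119 at 4 h and 1655 and 1505 at 8 h. PCNA fell by 0.40 on the log2 scale (SE 0.08, adjusted p = 0.000641 in edgeR). RFC1, the large subunit of the clamp loader, had 1168 and 1044 at 4 h and 1090 and 1150 at 8 h, which overlap (log2FC 0.02, SE 0.09, adjusted p = 0.890 in edgeR). Per exon length, PCNA stood far above the pair, at 155.2 ± 4.10 RPKM at 4 h and 117.9 ± 7.89 at 8 h, and RFC1 stood at 17.2 ± 1.36 and 17.5 ± 0.66 (SD, n = 2 each).

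The genes of both proteins that can be trapped on DNA moved in opposite directions. TOP1, which relaxes supercoils by cutting a single strand, rose from a normalized count of 858.7 ± 2.09 to one of 1213 ± 23.3 (SD, n = 2 each), with a log2FC of 0.50 (SE 0.08, adjusted p = 0.000101 in edgeR). PARP1, a sensor of DNA breaks, fell from 1009 ± 18.1 to 558.9 ± 9.48 (SD, n = 2 each), with a log2FC of −0.85 (SE 0.09, adjusted p = 4.7e-07 in edgeR). Of the other genes linked to FAM111A activity, POLR2A, the large subunit of RNA polymerase II, had a log2FC of −0.13 (SE 0.08, adjusted p = 0.188 in edgeR). NUP62, of the nuclear pore, had −0.16 (SE 0.10, adjusted p = 0.228 in edgeR). MCM3AP, of mRNA export, fell by 0.31 on the log2 scale (SE 0.09, adjusted p = 0.0117 in edgeR). The median log2FC of these 7 genes, PCNA and RFC1 included, was −0.16.

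Genes of the replication fork itself were lower at 8 h in large numbers, and the pair was compared with 66 of them. This list and the other gene lists were chosen with earlier results of these data known, which limits what their counts can show. All 66 passed the CPM filter. Of these, 26 were DEGs lower at 8 h and 0 were DEGs higher, where 3.88% and 1.45% of all genes were. With the adjusted p alone, 56 fell and 0 rose, where 18.8% of all genes fell and 19.9% rose. No fork gene rose at an unadjusted p below 0.05 either, and limma-voom and DESeq2 gave 23 and 26 lower DEGs and 0 higher. The median log2FC was −0.75, and the values ran from −1.72 to 0.14. FAM111A, at −1.17, took rank 19 from the bottom among the 68 genes that the list and the pair make up, within the range of the fork genes. FAM111B was at −2.95, a place below the fork genes that its choice had set, and the lowest fork gene was CLSPN at −1.72.

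The counts by role that follow stand against the same shares of all genes, 18.8% lower by the adjusted p and 3.88% DEGs lower at 8 h. The CMG helicase unwinds DNA at the fork. All 11 of its genes fell by the adjusted p and 7 were DEGs, with a median log2FC of −1.05. The largest change was in GINS3, with 227.1 and 266.5 normalized counts at 4 h and 91.7 and 63.1 at 8 h (log2FC −1.65, SE 0.18, adjusted p = 9.95e-07 in edgeR). The smallest was in MCM7, at −0.57 (SE 0.08, adjusted p = 1.02e-05 in edgeR). Of 15 genes of origin licensing and firing, 13 fell and 7 were DEGs, with a median of −0.69. They ran from MCM10, an activator of the helicase, at −1.70 (SE 0.17, adjusted p = 2.82e-07 in edgeR), to ORC4, of the origin recognition complex, at −0.18 (SE 0.15, adjusted p = 0.339 in edgeR).

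Among 12 polymerase and primase genes, 9 fell and 3 were DEGs, with a median log2FC of −0.72. POLA2, of polymerase alpha, had 363.9 and 339.6 normalized counts at 4 h and 112.1 and 136.2 at 8 h (log2FC −1.51, SE 0.14, adjusted p = 1.49e-07 in edgeR). POLD2, of polymerase delta, had 0.01 (SE 0.08, adjusted p = 0.901 in edgeR). Of 10 genes of the clamp and its loaders, 8 fell and 3 were DEGs, with a median of −0.60. The largest change there was in ATAD5, which unloads PCNA, at −1.44 (SE 0.29, adjusted p = 0.000649 in edgeR), and the smallest was that of RFC1, given above.

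Okazaki fragment maturation, which joins the pieces of the lagging strand, had 4 of 6 genes that fell and 1 DEG. FEN1, the flap nuclease, had 507.0 and 559.1 normalized counts at 4 h and 187.5 and 170.8 at 8 h (log2FC −1.57, SE 0.12, adjusted p = 1.1e-08 in edgeR). RNASEH2C, of ribonuclease H2, had −0.02 (SE 0.10, adjusted p = 0.885 in edgeR). Of 7 genes for fork protection and RPA, the binder of single-stranded DNA, 6 fell and 2 were DEGs. CLSPN (claspin), a checkpoint mediator, had 498.9 and 433.6 normalized counts at 4 h and 143.7 and 139.9 at 8 h (log2FC −1.72, SE 0.13, adjusted p = 1.01e-08 in edgeR). RPA3 had −0.14 (SE 0.20, adjusted p = 0.621 in edgeR). All 5 genes of chromatin assembly and DNA methylation at the fork fell and 3 were DEGs, from CHAF1B of the CAF-1 histone chaperone at −1.29 (SE 0.14, adjusted p = 8.65e-07 in edgeR) to the histone chaperone ASF1A at −0.45 (SE 0.15, adjusted p = 0.0204 in edgeR).

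**Figure D3:**
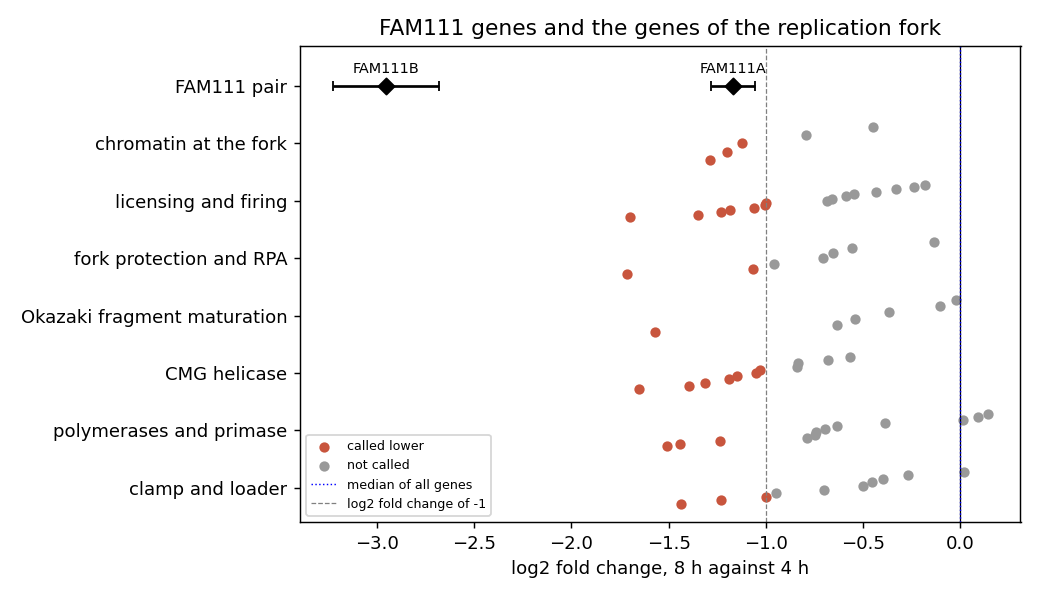
Log2FC, 8 h against 4 h, of the 66 fork genes by role (points, red where called as DEGs and grey where not) and of the pair (black diamonds with standard errors). FAM111A, at −1.17, lies within the range of the fork genes, and FAM111B, chosen for its fall, is at −2.95. The pair was chosen on this contrast, so nothing is read from either place. The dotted line is the median of all genes.

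FAM111A shares its PIP box with many proteins that work on PCNA. Of 21 such genes, 11 fell and 1 rose by the adjusted p in edgeR, against 18.8% and 19.9% of all genes. In limma-voom 11 fell and 2 rose, and in DESeq2 9 fell and 1 rose. Lower DEGs numbered 6 and higher DEGs 0, against 3.88% and 1.45% of all genes. The median log2FC of the 21 was −0.37. The largest changes were in EXO1, an exonuclease of mismatch repair, at −1.70 (SE 0.15, adjusted p = 8.12e-08 in edgeR), and in DTL, a substrate receptor of a PCNA-coupled ubiquitin ligase, at −1.68 (SE 0.12, adjusted p = 3.17e-09 in edgeR). The gene that rose in edgeR was CDKN1A, which encodes the CDK inhibitor p21, with a log2FC of 0.82. It is named because it was the exception there, after its value was seen.

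Genes that peak at G1/S, where FAM111B expression is known to begin, fell in most cases. Of 28, 25 fell and 1 rose by the adjusted p, where 18.8% of all genes fell and 19.9% rose. DEGs numbered 12, all lower, where 3.88% of all genes were DEGs lower at 8 h and 1.45% higher. The median log2FC of the 28 was −0.95. The gene that rose was E2F7, a repressor of the E2F family, at 0.60, named after its value was seen. The largest changes were those of E2F2 and CCNE2. E2F2 had 112.7 and 115.6 normalized counts at 4 h and 16.3 and 16.1 at 8 h (log2FC −2.81, SE 0.26, adjusted p = 1.19e-07 in edgeR). CCNE2, which encodes cyclin E2, had 68.9 and 67.7 at 4 h and 8.15 and 13.6 at 8 h (log2FC −2.67, SE 0.33, adjusted p = 3.83e-06 in edgeR). The lists overlap, so their counts are partly the same genes. EXO1, DTL and UNG are in both the PIP box and the G1/S list, and 7 of the 21 PIP box genes (FEN1, LIG1, DNMT1, CHAF1A, POLD3, CDT1 and RNASEH2B) are also in the fork list.

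SPRTN, the metalloprotease that cuts proteins crosslinked to DNA at the fork, had normalized counts of 115.3 and 103.0 at 4 h and 79.5 and 90.4 at 8 h. Its log2FC was −0.37 (SE 0.19, adjusted p = 0.139 in edgeR), and its level per exon length was 1.93 ± 0.16 RPKM at 4 h and 1.51 ± 0.14 at 8 h (SD, n = 2 each), below FAM111A at both times. Of 14 genes of crosslink proteolysis and repair, 13 passed the CPM filter, of which 4 fell and 2 rose by the adjusted p, with 0 DEGs in edgeR, limma-voom and DESeq2, against 18.8%, 19.9% and 5.33% of all genes. DDI1, a protease gene, had no count in any library. TRAIP, a ubiquitin ligase that acts on blocked replisomes, fell by 0.98 on the log2 scale (SE 0.21, adjusted p = 0.000987 in edgeR), and TDP1, which removes TOP1 remnants from DNA, by 0.72 (SE 0.17, adjusted p = 0.00192 in edgeR).

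Of 5 other protease genes of the trypsin fold, the HTRA family and TYSND1, 4 passed the CPM filter. Of these, 0 passed the adjusted p in edgeR, limma-voom or DESeq2, and 1, TYSND1, had an unadjusted p below 0.05 in edgeR. Among all genes in edgeR, 18.8% were lower by the adjusted p, 19.9% higher and 5.33% DEGs, so nothing is read from a count over 4 genes. TYSND1, a peroxisomal protease, had a log2FC of −0.35 (SE 0.15, adjusted p = 0.0751 in edgeR), and HTRA3, which encodes a secreted protease, 0.20 (SE 0.35, adjusted p = 0.691 in edgeR). Of 10 genes of factors that restrict DNA viruses, as FAM111A does, 8 passed the CPM filter, and 3 fell and 1 rose by the adjusted p, with 0 DEGs in the same tools, against the same shares of all genes. SAMHD1, a hydrolase of deoxynucleotides, fell from a normalized count of 252.9 ± 16.6 to 151.2 ± 12.5 (SD, n = 2 each; log2FC −0.74, SE 0.14, adjusted p = 0.000494 in edgeR). IFI16, a sensor of nuclear DNA, rose from 764.6 ± 61.9 to 1153 ± 109 (SD, n = 2 each; log2FC 0.59, SE 0.09, adjusted p = 5.66e-05 in edgeR).

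The neighbours of the pair on chromosome 11 were examined next. Within 1000 kb on either side, 42 genes are listed, members included, of which 21 are olfactory receptor genes, and 27 had no count in any library. A total of 11 passed the CPM filter, the pair and 9 neighbours, and none of the 9 was a DEG in edgeR, where 5.33% of all genes were, so nothing is read from this count. The closest downstream, DTX4 at 16.4 kb, had 17.1 ± 3.69 normalized counts at 4 h and 20.6 ± 1.13 at 8 h (SD, n = 2 each; log2FC 0.27, SE 0.38, adjusted p = 0.596 in edgeR). The closest upstream, GLYATL1 at 63.7 kb, had 19 and 19 counts at 4 h and 13 and 4 at 8 h (log2FC −0.84, SE 0.47, adjusted p = 0.168 in edgeR). GLYATL2, next to it, was at −0.57 (SE 0.38, adjusted p = 0.246 in edgeR).

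Further out, 3 neighbours rose and 1 fell by the adjusted p, where 19.9% and 18.8% of all genes did. OSBP, an oxysterol binding protein gene, had a log2FC of 0.57 (SE 0.08, adjusted p = 2.74e-05 in edgeR), STX3, a syntaxin gene, 0.58 (SE 0.10, adjusted p = 0.000163 in edgeR), and ZFP91, a zinc finger gene, 0.34 (SE 0.08, adjusted p = 0.00264 in edgeR). MRPL16, of the mitochondrial ribosome, fell by 0.44 on the log2 scale (SE 0.13, adjusted p = 0.0126 in edgeR). LPXN and PATL1 were at 0.02 and −0.02, and CTNND1, the fifth retained gene upstream at 1288 kb, at 0.24, none of them past the test.

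**Figure D4:**
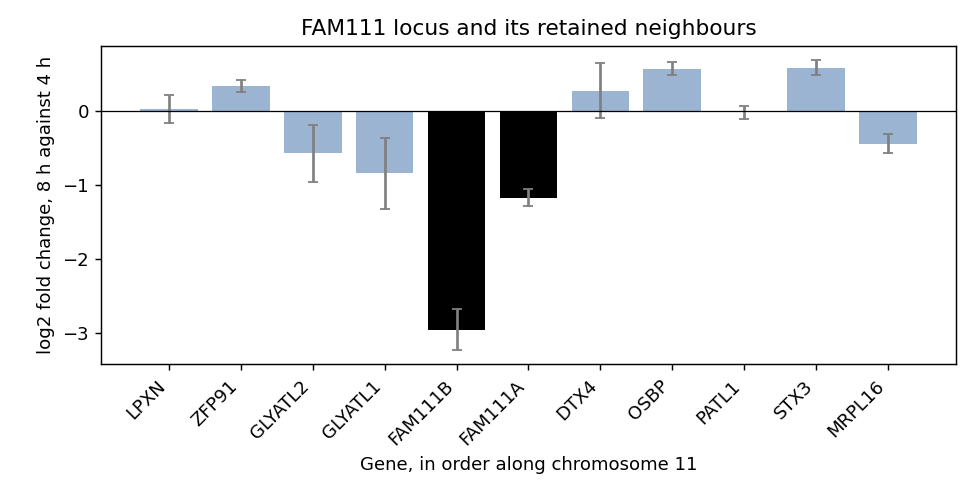
Log2FC, 8 h against 4 h, with standard errors, of FAM111A and FAM111B (black) and the 9 retained neighbours within 1000 kb (blue), in their order along chromosome 11. The neighbours have values between −0.84 and 0.58, against −1.17 for FAM111A and −2.95 for FAM111B. The pair was chosen on this contrast, so nothing is read from its place below them. The lowest neighbour, GLYATL1, has an SE of 0.47.

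To place the patterns of the pair among those of other genes, the Euclidean distance between log2 values over the 4 libraries was taken, after the mean of each gene was removed, for genes whose mean normalized count reached 100. With 4 libraries this distance is set mostly by the size of the change between times. Closest to FAM111A, of 9367 genes, were GMNN (geminin, the inhibitor of origin relicensing) at a distance of 0.04, CDC25C (a phosphatase that activates CDK1) at 0.05, ERRFI1 (a feedback inhibitor of the EGF receptor) at 0.10, PBK (a mitotic kinase) at 0.10 and PIK3R3 (a regulatory subunit of PI3 kinase) at 0.10. Their log2FC ran from −1.27 to −1.18. GMNN, for instance, had a mean of 223.3 ± 15.6 at 4 h and 97.4 ± 13.5 at 8 h (SD, n = 2 each). The names were not stable, since leaving out 1 library kept 0 to 3 of the 5 genes and Pearson correlation kept 0.

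For FAM111B, whose own mean over all libraries was under 100, the nearest of 9368 genes were the kinetochore gene NDC80 at 0.63, the spindle checkpoint gene BUB1B at 0.77, the kinesin gene KIF20A at 0.81, DLGAP5, of spindle assembly, at 0.88, and WDR76, a WD repeat gene, at 0.95. Their log2FC ran from −2.31 to −1.89. These distances are wider than those of FAM111A by construction, since FAM111B was chosen for its fall and genes with falls of like size, such as E2F2 and CCNE2, had means under 100 and were not candidates. For FAM111B, leaving out 1 library kept 4 to 5 of the 5 genes, while Pearson correlation kept 0.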

How the data were processed

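Raw counts per gene were deposited for 4 libraries of polyadenylated RNA (stranded protocol, single reads of 75 bases). Mapping by the authors was to hg19, using Bowtie (1.2.0 in the submitters' processing notes) without multi-mapping reads. The deposited counts are neither normalized nor pooled. The annotation, counting tool and use of strand are not given in the sources used here.

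The CPM filter (above 1 in 2 or more libraries) retained 12559 of 23459 genes, and TMM factors were calculated. Normalized counts are TMM-scaled CPM multiplied by the mean library size. The quasi-likelihood test of edgeR 4.0.16 (R 4.3.3) compared 8 h with 4 h using every library, a model of time alone and Benjamini-Hochberg adjustment over the retained genes. Standard errors are the log2FC divided by the square root of F. Limma-Voom (limma 3.58.1), the study's test, DESeq2 1.42.0, other scalings and filters, a block for replicate number and omission of each library were alternatives. The tests were tried on counts simulated from the means and spread fitted to these data. That trial therefore cannot gauge the real spread between replicates, and nothing is concluded from it. The biological coefficient of variation was 6.52%, and with 2 libraries per time the p-values borrow this spread from all genes. The study calls the replicates biological.

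Symbols came from the RefSeq table of GRCh38.p14, which matched 23308 identifiers, and positions from GENCODE on GRCh37. The members and gene lists were chosen with earlier results of these data known. Named genes are the pair, the 5 genes closest in pattern to each (among genes whose mean normalized count reached 100), the largest and smallest change in each role of the fork list, the 2 largest changes in each other list, SPRTN, the genes tied to FAM111A, and up to 5 retained neighbours on each side.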

Additional observations from a re-analysis of the deposited data

How the results depend on the processing

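The log2FC of FAM111A ran from −1.28 to −1.17 over the alternatives in test, scaling, filter, block and abundance trend, and from −1.30 to −1.06 with 1 library left out. That of FAM111B ran from −3.06 to −2.77 and from −3.18 to −2.79. Without 8 h replicate 1 it moved by more than the replicate SD, to −3.18. Scaling by library size alone shifted the overall median by −0.11 and made the DEGs 125 higher and 641 lower, against 182 and 487 with TMM. The abundance trend correction, chosen after seeing the data, gave 263 and 338. With the adjusted p alone there were 4867 calls over all genes, 56 in the fork list, 26 in the G1/S list and 12 in the PIP box list. With the fold threshold, the other alternatives gave 507 to 766, 21 to 28, 12 to 16 and 6, and leaving out 1 library gave 563 to 768, 24 to 28, 12 to 13 and 5 to 6; a time left with 1 library was assumed to vary like the other. A replicate block gave 691 DEGs, 25 of them in the fork list, and the log2FC was −1.18 for FAM111A and −2.96 for FAM111B. Replicate differences at 4 h and 8 h correlated at 0.05 over every gene tested, and at 0.12 over the 9368 better-counted ones, whose normalized counts averaged 100 or more. No label ties a replicate number to a shared day or batch, so the numbers were not taken as pairs. The ratio of FAM111A to FAM111B was 6.98 at 4 h and 24.6 at 8 h per coding length, and 3.10 to 3.12 and 10.4 to 11.5 per exon length with 1 library left out. Pearson correlation over 4 libraries kept 0 of the 5 genes closest to FAM111A and 0 of those closest to FAM111B, since 370 and 462 genes had r of at least 0.99. Leaving out 1 library kept 0 to 3 and 4 to 5 of them. Depth limits FAM111B, with 26 reads at 8 h in all.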
